A study of Helianthus annuus with 142 samples.

Results

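In the leaves of sunflower (Helianthus annuus), 26 of the 57891 genes with chromosome identifiers were expressed in watered plants and close to silent in droughted plants. They were chosen from the deposited read counts by 2 thresholds on CPM, a gene's count scaled to a common library total. The mean over all stress libraries had to be below 1 CPM, and log2 of the stress mean plus 0.5 over the control mean plus 0.5 had to be -3 or lower. These stress and control values chose the genes, so the fall under drought is described below and nothing is read from a test of it. The files pair the identifiers with no names, and 0 of them matched a table of 83308 RefSeq genes of another sunflower assembly, so no role can be given for any of the 26 genes and no pathway list could be counted.

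Leaf RNA was sequenced in 72 stress and 70 control libraries, each from its own potted plant. The stressed plants had been left without irrigation and carry a fraction of transpirable soil water (FTSW, the share of the soil water open to the plant that is still there) of 0.1 in the labels. The control plants had their water loss replaced by a weighing robot and carry an FTSW of 1. For all libraries the labels give 15 L of soil and saturation at 35 days after germination. The 24 genotypes comprise 16 hybrids and 8 lines, with 3 libraries in each of the 48 groups except the control plants of SF342, which have 1.

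The 16 hybrids are named after a first and a second parent. The first-named parents are SF009, SF092, SF109 and SF193, the second-named parents are SF279, SF317, SF326 and SF342, and each first parent was combined with each second parent. The 8 lines are these same parents. Hybrids gave 48 stress and 48 control libraries, and lines gave 24 stress and 22 control libraries. No transgene or other agent is named in the labels.

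When soil dries, the hormone abscisic acid closes the stomata, and leaf growth and photosynthesis slow down. Leaf cells then transcribe many growth and metabolic genes less, while genes for protective proteins and solutes are transcribed more. A first-generation hybrid carries a chromosome set from each parent, so a gene that is silent in either parent can still be transcribed from the other parent's copy. In RNA from whole leaves, fewer cells that express a gene and less RNA of it per cell cannot be told apart.

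Library totals ran from 2791984 to 13765563 counts, with a median of 6921971. At these depths 3 counts corresponded to between 0.218 and 1.07 CPM, so a stress value below 1 CPM rests on a handful of reads in a single library. A check of labels used 1922 other genes that are on in some genotypes and off in others, and 139 libraries, all but 3, agreed best with their own genotype. The 6 libraries of SF009 did so at 81.93% to 91.77% of these genes and the other 133 at 96.85% or more, and the cause was not tested. The library labelled SF092_SF317 stress replicate 3 matched SF326 at 99.3% of these genes, and the library labelled SF326 stress replicate 3 matched SF092_SF317 at 99.03%. The library labelled SF009_SF279 control replicate 1 matched SF009 better than its own genotype. The rule picked the same number of genes, 26, without these 3 libraries, and the tests below are given without them where that matters.

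Between 1565 and 1848 of these genes were compared between each hybrid and all pairs of lines. The labelled pair of parents gave the best match for 13 of 16 hybrids. The exceptions were SF009_SF279, SF009_SF326 and SF109_SF326, at 69.5%, 79.6% and 74.97%, where another pair gave 77.5%, 82.4% and 78.3%. The match was lowest for SF009_SF279, followed by SF092_SF326 at 74.5%, for which the labelled pair was still the best, and SF109_SF326. SF193_SF317 had the highest, at 98.97%. Statements on parents below rest on the labels.

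The 26 genes lie on 12 of the 17 chromosomes. Chromosome 14 holds 5 of them (19.2%), and chromosomes 3, 10 and 11 hold 3 each (11.5%). Of all genes placed on the 17 chromosomes, 6.37% lie on chromosome 14. Chromosomes 3, 10 and 11 hold 5.98%, 7.44% and 5.95% of them. Whether the 26 genes cluster was not tested. Their closest neighbours are HanXRQChr14g0455451 and HanXRQChr14g0455481, which lie 45528 bp apart with 2 other genes between them. On the forward strand are 14 of the 26, and the share over all genes is not given here. The median span of a gene in the files, introns included, was 2210.5 bp, against 2477 bp over all genes and 4196 bp over the 14651 genes in the same range of control CPM. Coordinates follow the deposited files. The genome build is not given in any source used here.

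The mean level in stressed plants was between 0.0389 and 0.938 CPM over the 26 genes, with a median of 0.608 CPM. In control plants it was between 4.53 and 31.3 CPM, with a median of 12.0 CPM. The 26 genes were therefore of low to moderate level in control plants. The log2 ratio of the rule ran from -5.31 to -3.001, with a median of -3.39. Just inside the fold threshold were genes at -3.04 and -3.001, and just outside it, with stress means below 1 CPM, were genes at -2.99 and -2.99. Just inside the level threshold were stress means of 0.935 and 0.938 CPM, and just outside it stress means of 1.13 and 1.15 CPM. A further 70 genes fell by the same fold but kept a stress mean of 1 CPM or more. In the average over genotypes, edgeR called 22 of the 26 genes lower under stress, where it called 32.6% of the 36989 genes tested; the rule fixed that direction.

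The levels of the 26 genes were summed within each library. In the 72 stress libraries the sum ran from 1.25 to 128 CPM with a median of 6.10 CPM, and in the 70 control libraries from 49.9 to 663 CPM with a median of 309.8 CPM. The 2 conditions overlapped only through a few libraries: 5 stress libraries reached the lowest control library, which is the single SF342 control. Leaving out SF342, 1 of 69 stress libraries reached the lowest control sum of 91.9 CPM. A stress library had a median of 10 of the 26 genes with no count at all, and the number ran from 0 to 24. In 27 control libraries every one of the 26 genes had a count.

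**Figure D1:**
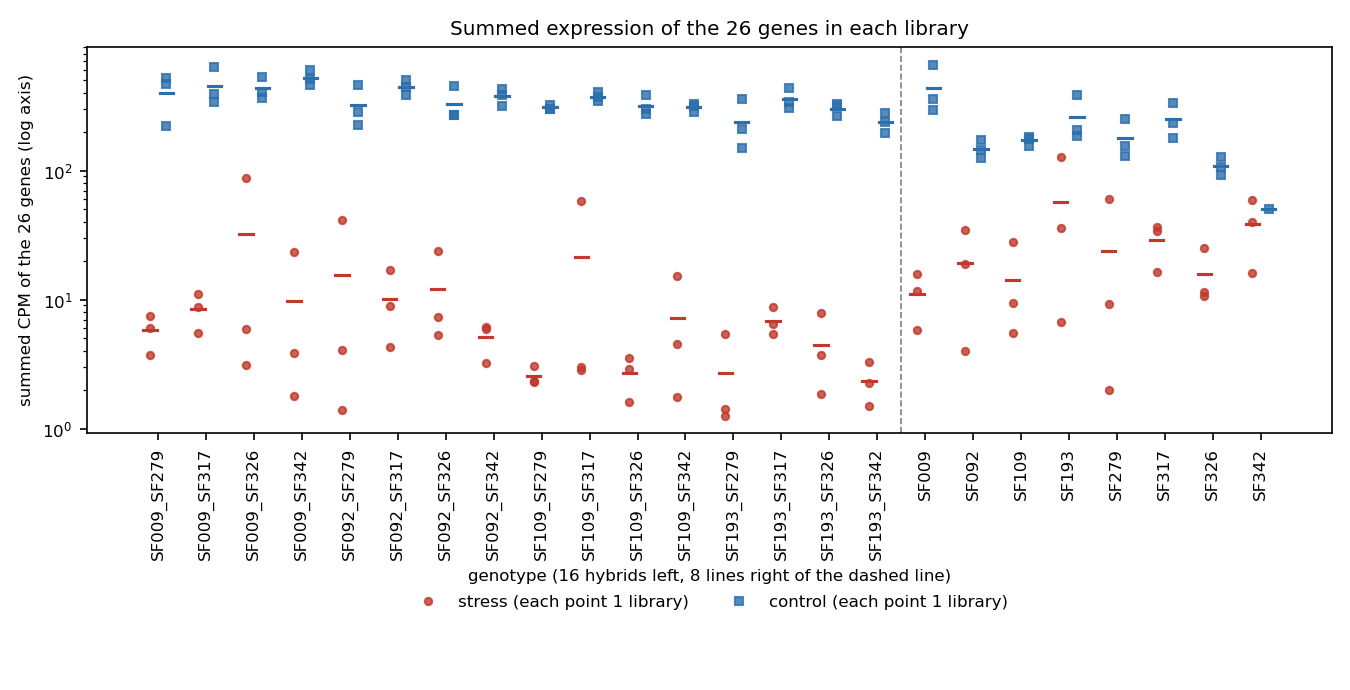
Summed CPM of the 26 genes (log axis) in each library, by genotype, with stress to the left of control and a bar at each group mean. The stress libraries have a median of 6.10 CPM and the control libraries one of 309.8 CPM, and the highest stress library is SF193 stress replicate 2 at 128 CPM.

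By the ratio of the highest to the lowest sum, plants of the same genotype differed more under stress than under control supply. This does not hold for differences in CPM, and a ratio of stress sums can rest on few reads. The highest stressed plant of a genotype exceeded its lowest by a median factor of 4.08 and by up to 30.7 in SF279, where the sums were 1.97, 9.26 and 60.6 CPM. Control plants of a genotype differed by a median factor of 1.42 and by at most 2.41. The 5 highest stress sums were 128 CPM in SF193 replicate 2, 87.2 CPM in SF009_SF326 replicate 1, 60.6 CPM in SF279 replicate 2, 59.0 CPM in SF342 replicate 1 and 57.8 CPM in SF109_SF317 replicate 1. Gene by gene, the 3 highest of the 72 stress libraries supplied between 24.9% and 59.2% of a gene's summed stress CPM, with a median of 38.01%. How dry each single pot was is not analysed here, and its part in these values was not tested.

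No gene of the 26 was shut off in all 24 genotypes when both thresholds were applied within each genotype. The hybrids had a median of 22 of the 26 genes shut off, with a range of 14 to 25. The lines had a median of 3.5, with SF009 at 21 and the other 7 lines between 1 and 6. Taken over gene and genotype, 325 of 416 combinations in hybrids met the thresholds (78.1%), against 45 of 208 in lines (21.6%). A control mean below 3.5 CPM cannot meet the fold at any stress level, which held for 78 combinations in lines and 41 in hybrids. The stress mean was below 1 CPM but the fold fell short in 99 combinations in lines and 63 in hybrids. It was 1 CPM or more in 64 combinations in lines and 28 in hybrids. A gene was shut off in a median of 14.5 genotypes, and 3 genes were shut off in all 16 hybrids.

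**Figure D2:**
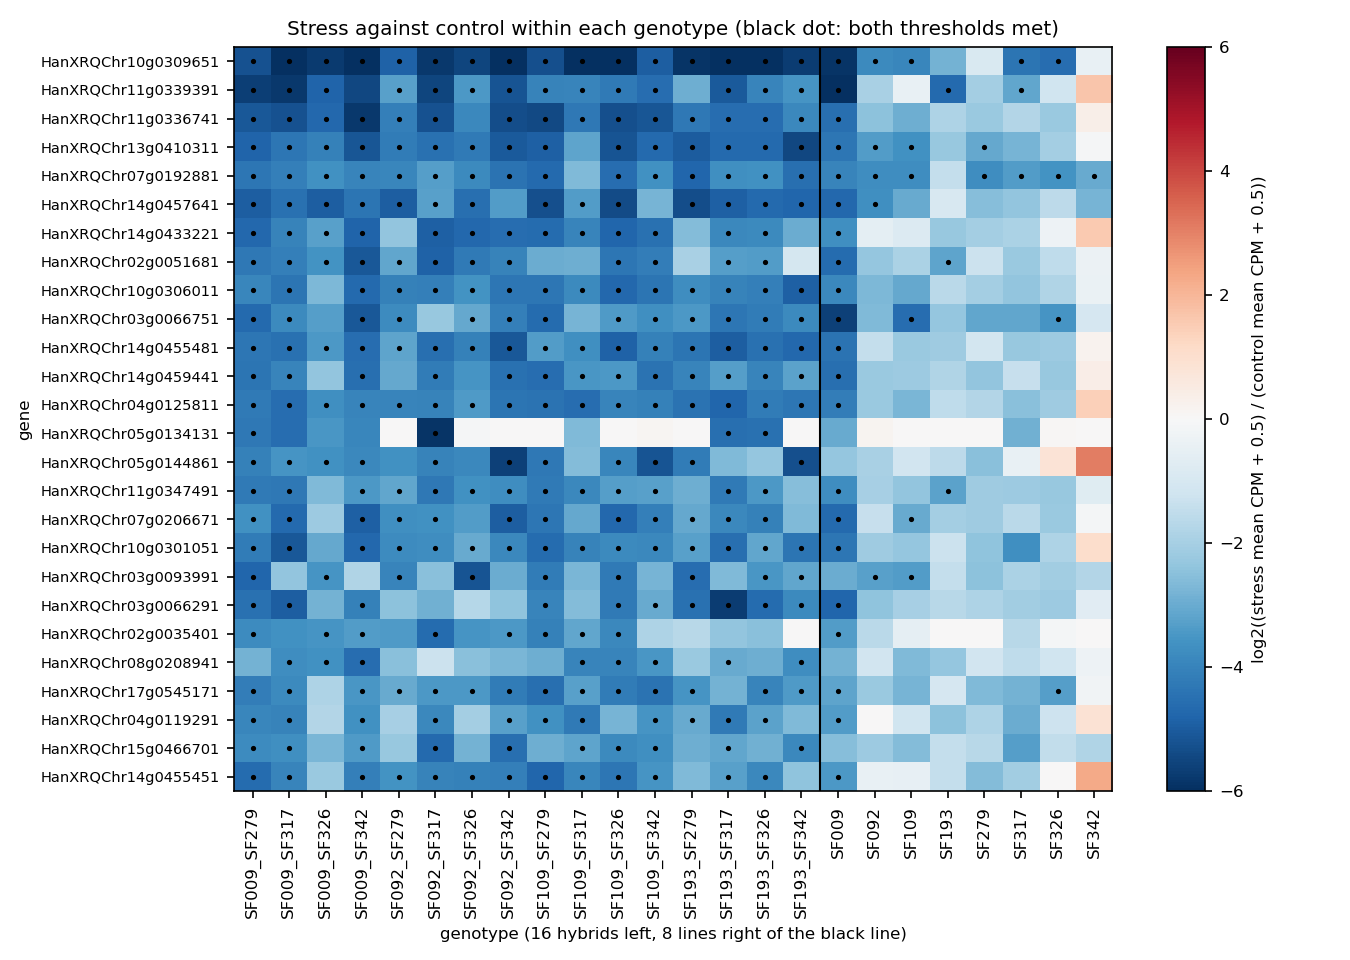
Log2 of the stress mean plus 0.5 over the control mean plus 0.5 CPM for each gene (rows, largest fall at the top) in each genotype (columns, hybrids left of the black line and lines right of it). Dots mark the 370 of 624 combinations that meet both thresholds, and hybrids have 14 to 25 each and SF009 has 21, while the other 7 lines have 1 to 6 each.

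The direction was more widely shared than the silence. In 14 of the 26 genes the stress mean was below the control mean in each of the 24 genotypes, where 4.83% of all genes tested were lower in each. For 1 gene, HanXRQChr07g0192881, the 24 stress means lay wholly below the 24 control means, which held for 0.703% of all genes tested. These counts use the contrast that chose the genes. SF342 stood apart, with 14 of the 26 genes lower under stress, and its control values come from 1 plant. The summed stress level was 76.9% of the control level in SF342, between 8.35% and 21.9% in the other lines but SF009, and 2.53% in SF009. In hybrids it was between 0.829% in SF109_SF279 and 7.39% in SF009_SF326, with a median of 1.85%.

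The split between hybrids and lines is partly built into the choice. Hybrids supplied 48 of the 72 stress libraries that were averaged, so a gene silent in hybrids passed more easily than a gene silent in lines. Applied to hybrids alone, the rule picked 64 genes, among them all 26. Applied to lines alone it picked 37 genes, of which 3 are among the 26. Of those 37 genes, 2 had a higher control mean in hybrids than in lines and 3 had a lower stress mean in hybrids than in lines, the reverse of the 26 genes described next. The tests between hybrids and lines below are therefore not independent of the choice of genes.

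In control plants, the 26 genes were mostly higher in hybrids than in lines. The mean control CPM was higher in hybrids for 24 of the 26 genes, where 55.3% of all genes tested were higher. With edgeR's quasi-likelihood test, 19 of the 26 had a Benjamini-Hochberg adjusted p below 0.05 and were higher in hybrids, against 20.4% of all genes tested. Hybrids exceeded lines by a median log2 difference of 1.58 over the 26 genes and of 0.10 over all genes tested. The range over the 16 hybrids and the range over the 8 lines overlapped for every one of the 26 genes. Overlap of these ranges was not counted for other genes, so nothing is read from it. The summed control CPM was 359 ± 78.8 in hybrids and 200.2 ± 118 in lines (SD over 16 and 8 genotypes). It exceeded the mean of the labelled parents in 16 of 16 hybrids, by a factor of 1.09 in SF193_SF279 to 3.83 in SF092_SF342, and exceeded both parents in 12. Each parent enters 4 of these comparisons, so they are not separate observations.

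HanXRQChr05g0144861 (chromosome 5, 126235058 to 126240020, reverse strand) had the largest such difference in edgeR among the genes it called. Its control mean ran from 2.22 to 46.9 CPM over the hybrids, with a median of 12.3, and from 0.129 to 5.54 CPM over the lines, with a median of 1.16. SF092_SF342 and SF092_SF279 were the highest hybrids, and SF092 was the highest line, and the ranges overlapped between 2.22 and 5.54 CPM. The log2 difference was 3.52 ± 0.43 (SE, limma voom) and 3.38 in edgeR (adjusted p = 5.35e-09). HanXRQChr02g0035401, taken up under Other observations, had a larger log2 difference in edgeR, 3.77, but edgeR did not call it. Limma voom did, at 2.88 ± 0.38 (SE, limma voom adjusted p = 1.22e-09).

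HanXRQChr14g0433221 (chromosome 14, 53361105 to 53365292, forward strand) came next among the called genes. Its control mean ran from 3.42 to 22.3 CPM over the hybrids, with a median of 12.0, and from 0 to 14.3 CPM over the lines, with a median of 1.52. Among the lines SF009 stood at the top, SF193 followed at 4.89 CPM, and SF092, SF109, SF326 and SF342 were below 1 CPM. The log2 difference was 3.45 ± 0.50 (SE, limma voom) and 3.25 in edgeR (adjusted p = 7.33e-07).

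**Figure D3:**
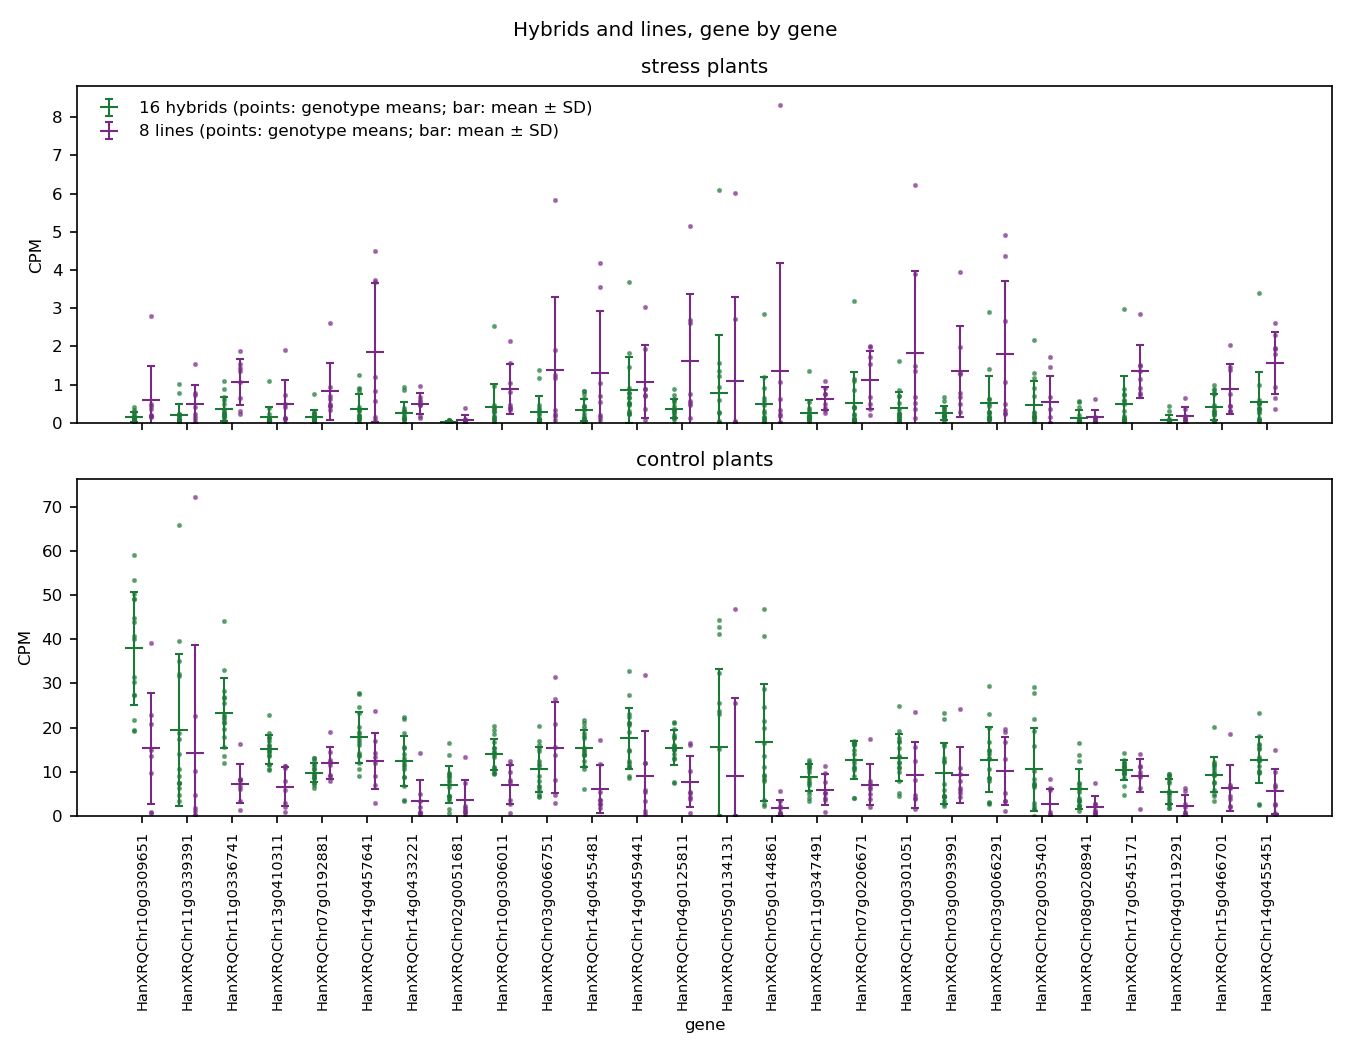
CPM of each of the 26 genes in stressed plants (upper panel) and control plants (lower panel), with hybrids left of lines. Points are genotype means and bars their mean ± SD, cut at 0. In control plants 24 genes have the higher mean in hybrids, and in stressed plants all 26 have the lower mean in hybrids.

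Under drought the order was turned round. All 26 genes had a lower mean CPM in the stressed hybrids than in the stressed lines, where 49.6% of all genes tested were lower. The test called 17 of the 26 lower in hybrids, against 21.3% of all genes tested, and the number was 10 when any 1 of the 3 replicate numbers was left out, against 15.3% to 16.9% of all genes tested. The summed stress CPM was 9.30 ± 7.97 in hybrids and 26.03 ± 15.2 in lines (SD over 16 and 8 genotypes), and it was below the mean of the labelled parents in 15 of 16 hybrids. The exception was SF009_SF326, at 32.0 CPM, which held the plant at 87.2 CPM. The 8 lines supplied 58.3% of the summed stress CPM of the 24 genotypes.

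Of the genes called in stressed plants, HanXRQChr07g0192881 and HanXRQChr03g0093991 had the most negative log2 differences. HanXRQChr07g0192881 (chromosome 7, 47604337 to 47604567, reverse strand) spans 231 bp, the shortest of the 26. Its stress mean ran from 0 to 0.756 CPM over the hybrids, with a median of 0.0979, and from 0.345 to 2.61 CPM over the lines, with a median of 0.558. SF193 was the highest line, and SF109_SF317 was the 1 hybrid above most lines. The log2 difference was -2.01 ± 0.37 (SE, limma voom) and -2.68 in edgeR (adjusted p = 2.9e-08). In control plants the gene was at 9.76 ± 2.18 CPM in hybrids and 12.0 ± 3.56 CPM in lines (SD over 16 and 8 genotypes), a difference that did not pass the test (log2 difference -0.30, edgeR adjusted p = 0.27). It was shut off in 22 genotypes, 15 hybrids and 7 lines, more than any other of the 26.

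HanXRQChr03g0093991 (chromosome 3, 168103867 to 168105809, forward strand) had stress means of 0 to 0.686 CPM over the hybrids, with a median of 0.197, and of 0.293 to 3.96 CPM over the lines, with a median of 1.03. The log2 difference in stressed plants was -1.93 ± 0.41 (SE, limma voom) and -2.29 in edgeR (adjusted p = 9.67e-07). Its control means of 2.29 to 23.3 CPM in hybrids and 4.24 to 24.1 CPM in lines covered almost the same range. SF279 was the highest line in both conditions, and the hybrids SF009_SF279, SF092_SF279 and SF193_SF279 were among the higher ones in control plants, at 21.9, 16.3 and 15.7 CPM, below SF092_SF326 at 23.3 CPM. Among hybrids, the second-named parent passed the test for this gene (edgeR adjusted p = 3.1e-08), and the first-named parent did not (edgeR adjusted p = 0.43).

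The drought response itself, stress over control on the log scale, was compared between hybrids and lines as a difference of differences. The test called 17 of the 26 genes, each with a deeper fall in hybrids, where 17.6% of all genes tested were called in that direction. The median log2 difference was -2.80 over the 26 genes and -0.08 over all genes tested. Limma voom called 25 of the 26, where it called 18.6% of all genes tested, and DESeq2 called 26, where it called 20.1%. By edgeR, 8 of the 26 had an adjusted p above 0.99. HanXRQChr11g0339391 was 1 of these, at -3.57 in edgeR and -3.18 ± 0.80 in limma voom (SE, limma voom adjusted p = 0.00128). An edgeR adjusted p that high is therefore not read as absence of a difference, and its cause was not tested. Without replicate 2, edgeR called 11, where it called 3992 of the 36367 genes tested in that direction. All 17 were also called lower in stressed hybrids, and 12 of them were also called higher in control hybrids. For the 70 genes that fell by the same fold but stayed at 1 CPM or more, 66 were called with a deeper fall in hybrids, and their median log2 difference was -2.47. The same pooled ratio chose these 70 genes, so their count is not independent of the choice either.

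Of the genes edgeR called, HanXRQChr14g0433221 had the most negative difference in response by edgeR, -4.85 (adjusted p = 0.00033), and -4.23 ± 0.77 by limma voom (SE). Its stress mean was 0.253 ± 0.284 CPM in hybrids and 0.503 ± 0.269 CPM in lines (SD), so most of that difference lay in the control plants described above. Its edgeR adjusted p was 1 without replicate 2, 1 without replicate 3 and 1 without the 3 libraries of doubtful label, with the direction kept. As given above, such a value is not read as absence of a difference. HanXRQChr14g0455451 (chromosome 14, 157191418 to 157193094, forward strand) followed at -4.51 in edgeR (adjusted p = 3.81e-05), and was the more negative of the pair in limma voom at -4.36 ± 0.87 (SE). Its stress mean ran from 0 to 3.40 CPM over hybrids, with a median of 0.36, and from 0.37 to 2.62 CPM over lines, with a median of 1.86. Its control mean ran from 2.45 to 23.3 CPM over hybrids, with a median of 12.7, and from 0 to 14.8 CPM over lines, with a median of 4.56. Both genes have groups with no count, so the size of a fitted log2 difference depends on the small constant each tool adds.

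The largest falls of the rule belonged to HanXRQChr10g0309651 and HanXRQChr11g0339391, among genes shut off in at least 12 genotypes. HanXRQChr10g0309651 (chromosome 10, 210299456 to 210302370, reverse strand) was also the highest of the 26 in control plants. In the stress libraries it ran from 0 to 7.54 CPM with a median of 0.121, and in the control libraries from 0.41 to 80.0 CPM with a median of 29.0. All 16 hybrids had it shut off, and so did 5 lines. SF193 stress replicate 2 alone held 33 of its 137 reads in stressed plants. SF279 and SF342 had little of it even when watered, with 3, 5 and 7 counts in the SF279 control libraries and 5 counts in the SF342 one, while every hybrid had a control mean of at least 19.1 CPM. Control hybrids exceeded control lines by a log2 difference of 2.12 ± 0.23 (SE, limma voom; edgeR adjusted p = 1.39e-12).

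HanXRQChr11g0339391 (chromosome 11, 103497413 to 103499242, reverse strand) ran from 0 to 3.45 CPM in the stress libraries with a median of 0, and from 0 to 177 CPM in the control libraries with a median of 7.92. It had no count in 40 of the 72 stress libraries and in 2 of the 70 control libraries. Its control level varied widely among genotypes, up to 72.2 CPM in SF009 and 65.8 CPM in the highest hybrid, and down to 0.135 CPM in SF342. The differences among control genotypes passed the test (edgeR adjusted p = 4.08e-09), and so did the first-named parent among hybrids (edgeR adjusted p = 4e-06).

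The second highest of the 26 in control plants was HanXRQChr11g0336741 (chromosome 11, 81822535 to 81824682, forward strand). Its stress libraries ran from 0 to 4.11 CPM with a median of 0.178, and its control libraries from 1.20 to 59.8 CPM with a median of 17.1. It was shut off in 15 hybrids and in SF009, which was also the highest control line at 16.2 CPM. Control hybrids exceeded control lines by a log2 difference of 1.87 ± 0.26 (SE, limma voom; edgeR adjusted p = 1.6e-07), and its drought response was deeper in hybrids by -3.17 ± 0.52 (SE, limma voom; edgeR adjusted p = 1.4e-07).

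The least complete silence of a single genotype was that of HanXRQChr05g0144861 in SF342. Its 3 stressed plants had 8.62, 12.8 and 3.51 CPM, and the 1 control plant had 0.541 CPM from 4 counts. All 3 stressed plants of SF342 were thus above its control plant, and no other genotype had a stress mean above 2.86 CPM for this gene. HanXRQChr10g0301051 (chromosome 10, 160740769 to 160754251, reverse strand) had the next highest stress mean of a genotype, 6.23 CPM in SF193, of which replicate 2 had 13.5 CPM. Over hybrids its stress mean was at most 1.62 CPM.

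Genotypes differed in the level of these genes in control plants. Among the 24 control groups 23 of the 26 genes passed the test, where 67.2% of all genes tested did, and 15 passed without replicate 1, where 49.3% did. The interaction of genotype and water supply, which asks whether the drought response differs among the 24 genotypes, passed for 15 of the 26 genes, where 11.9% of all genes tested did. That count was 5, 3 and 5 without replicate 1, 2 and 3, where the share of all genes tested was 1.75%, 1.74% and 1.05%. Without SF342 and its hybrids 8 passed, where 4.94% of all genes tested did. The tests among control groups and of the interaction include the difference between hybrids and lines. They are therefore not independent of the choice of genes. Among hybrids, the first-named parent passed for 11 of the 26 genes, where 42.8% of all genes tested did, and the second-named parent for 9, where 36.2% did. Both shares of the 26 lay close to those of all genes tested. The first-parent count was 6 without SF342 and its hybrids, where 35.2% of all genes tested passed, and 6 without replicate 3, where 29.2% did. The second-parent count was 5 without replicate 3, where 21.1% did. The hybrids of SF009 had the highest summed control CPM of the first-named parents, 454 ± 52.4, and those of SF193 the lowest, 284 ± 58.6 (SD over 4 hybrids each).

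Many of the 26 genes were close to silent in some watered lines as well. Control means below 1 CPM in at least 1 line were found for 15 of the 26 genes, in 42 gene and line combinations, of which 15 belong to the single SF342 control library. In hybrids 4 genes had such a mean, in 11 combinations. Where neither labelled parent was below 1 CPM, the hybrid was at 1 CPM or more in 279 of 279 combinations. Where 1 parent was below, the hybrid was at 1 CPM or more in 104 of 106. Where both parents were below, it was still at 1 CPM or more in 22 of 31. No such count was made for other genes, and 1 CPM is near the limit of detection of the shallower libraries. Nor are the counts independent of the choice of genes. Hybrids supplied 48 of the 70 control libraries averaged by the rule, so a gene low in lines passed more easily when it was on in hybrids.

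HanXRQChr05g0134131 (chromosome 5, 26995373 to 26996574, reverse strand), named after its values were seen, was on or off by genotype. In control plants it averaged between 15.2 and 46.8 CPM in 10 genotypes, and the other 14 genotypes held 1 count in all over 40 control libraries. The genotypes with the gene on were SF009 at 25.7 CPM, SF317 at 46.8 CPM, all 7 hybrids named after either, and SF193_SF326. Under stress the highest genotype mean was 6.11 CPM, in SF109_SF317. It met both thresholds in 4 genotypes, all of them hybrids. The first-named parent (edgeR adjusted p = 2.45e-18) and the second-named parent (edgeR adjusted p = 2.33e-21) both passed the test for it.

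**Figure D4:**
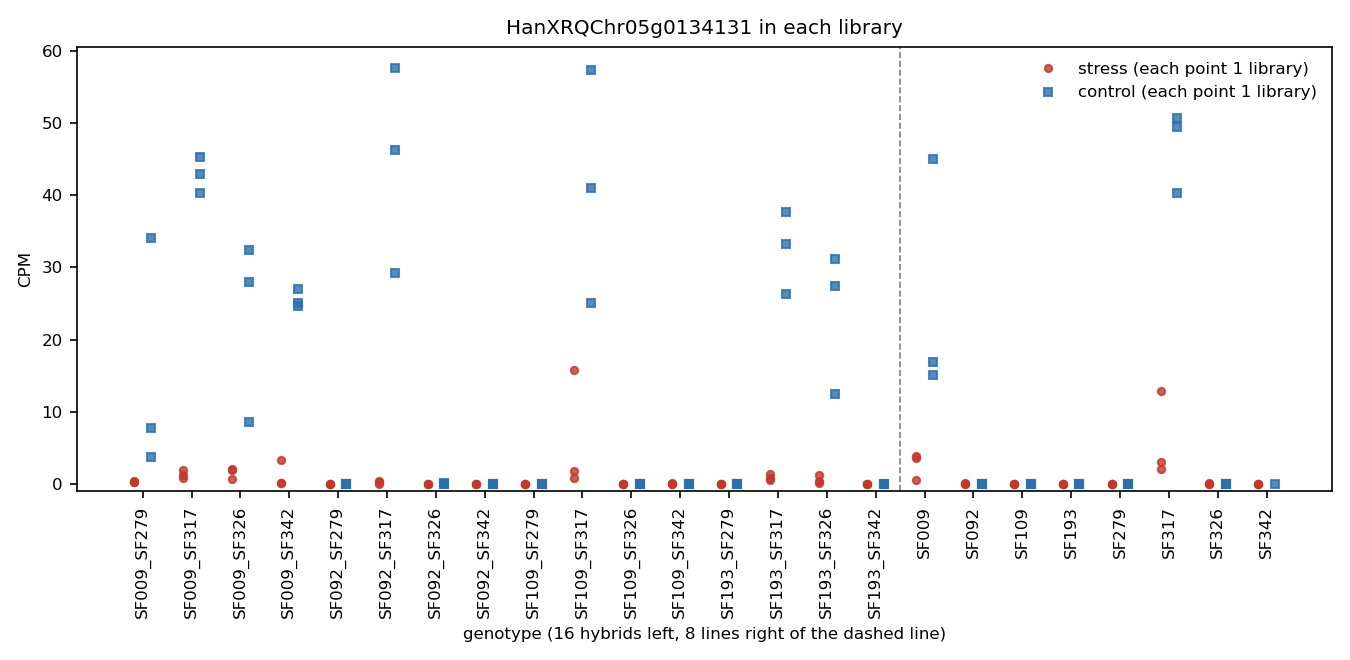
CPM of HanXRQChr05g0134131 in each library, with stress to the left of control, hybrids left of the dashed line and lines right of it. SF009, SF317, the 7 hybrids named after either and SF193_SF326 have control means of 15.2 to 46.8 CPM, and the other 14 genotypes lie at or next to 0.

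Within a condition, the levels of the 26 genes were compared across libraries. The Pearson correlation of log2 of CPM plus 0.5 had a median of 0.50 over the 325 pairs of genes across the 72 stress libraries, and of 0.38 across the 70 control libraries. Over the 2415 pairs of the 70 genes that stayed at 1 CPM or more, the medians were 0.69 across stress libraries and 0.32 across control libraries. These are descriptions: the points share genotypes and library depth. The part of low counts in the values of the 26 genes was not tested.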

How the data were processed

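The authors deposited whole-number read counts per gene for 142 libraries, and a second table of CPM for 30831 genes and 140 libraries after their own filtering, used here only to set 1 alternative. Per the submitters' processing notes, edgeR 3.16.5 and R 3.3.3 were used; no source used here gives the aligner, the counting tool, the annotation or the genome build. Libraries were oriented TruSeq pairs per the labels' protocols, and overlapping or near-identical genes may share reads.

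The 17 ribosomal RNA rows were left out of 58050, and they held 0.00237% of all counts. filterByExpr over 48 groups kept 36989 genes, all 26 among them. After TMM scaling (factors 1.08 ± 0.0752 in stress and 0.928 ± 0.0657 in control libraries, SD), 1 mean per group was fitted with edgeR 4.0.16 (R 4.3.3; trended dispersion, robust quasi-likelihood) and contrasts were tested with Benjamini-Hochberg adjustment over all genes tested. Standard errors come from limma 3.58.1 voom; DESeq2 1.42.0 was an alternative. P-values rest on the spread between plants of the same genotype and water supply. Those for hybrids against lines leave out the spread among the 16 hybrids and among the 8 lines. They therefore concern these 24 genotypes and not hybrids and lines in general. The spread of SF342 control plants, with 1 library, was taken from the other groups. The scripts were tested on simulated data.

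The genes named were the 2 largest falls among genes shut off in at least 12 genotypes, the 2 largest called differences in each direction of the 3 tests between hybrids and lines, the 2 highest in control plants and the 2 with the highest stress mean of a genotype. The genes, lists and tests were chosen with earlier results of these data known. CPM carries no gene length and is not compared between genes as an amount.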

Additional observations from a re-analysis of the deposited data

Results flagged for a closer look

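In 9 of 21 sets of values over the 8 lines, 1 line lay far from the rest by Dixon's test. Chance alone gives about 1 in 20 separate sets, but these sets share the 8 lines and hold genes named for extreme values, so their number is not read against that rate. SF009 had 21 of the 26 genes shut off. SF009 was also high in control plants for HanXRQChr11g0339391 at 72.2 CPM, HanXRQChr14g0433221 at 14.3 CPM and HanXRQChr11g0336741 at 16.2 CPM. SF193 was high under stress for HanXRQChr10g0309651 at 2.79 CPM and HanXRQChr07g0192881 at 2.61 CPM, in both cases with its replicate 2 the highest stress library of the gene. SF279 was high for HanXRQChr03g0093991 in stressed plants at 3.96 CPM and in control plants at 24.1 CPM. SF342 was high under stress for HanXRQChr05g0144861 at 8.32 CPM.

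The drought response differed between hybrids and lines for HanXRQChr14g0433221, by -4.85 on the log2 scale (edgeR adjusted p = 0.00033), and for HanXRQChr14g0455451, by -4.51 (edgeR adjusted p = 3.81e-05). For HanXRQChr14g0433221 the adjusted p was 1 without replicate 2, 1 without replicate 3 and 1 without the 3 libraries of doubtful label, and the difference ran from -5.48 to -2.70 without 1 replicate number. The choice of genes bears on both, as the report gives it, and its part was not tested.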

How the results depend on the processing

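With another pseudocount the rule picked 96 genes (0.1) or 10 genes (1), in hybrids alone 64, and between 15 and 38 without 1 replicate number. Counts of the 26 genes called ran, without 1 replicate number, from 10 to 10 for hybrids against lines in stressed plants (17 with all), 11 to 14 for the drought response of hybrids against lines (17), 15 to 22 for differences among control genotypes (23), 3 to 5 for the interaction (15), 6 to 12 for the first-named parent (11) and 5 to 10 for the second-named parent (9). Of all genes tested, 15.3% to 16.9% were called lower in stressed hybrids (21.3% with all). A response lower in hybrids was called for 7.52% to 12.4% (17.6%). Differences among control genotypes were called for 49.3% to 56.6% (67.2%) and the interaction for 1.05% to 1.75% (11.9%). The first-named parent was called for 29.2% to 33.9% (42.8%) and the second-named for 21.1% to 28.2% (36.2%). DESeq2 called 26 in the drought response, where it called 20.1% of all genes tested. Without SF342 and its hybrids 8 were called for the interaction and 6 for the first-named parent, against 4.94% and 35.2% of all genes tested. The other 80 counts under an alternative were within 1.5 times the main count. That compares numbers and not the genes themselves. In lines alone the rule picked 37 genes, of which 3 are among the 26. Among log2 differences of named genes 5 turned sign, none passing the test once turned: in stressed plants HanXRQChr05g0144861 ran from -0.92 to 0.92 and HanXRQChr14g0433221 from -2.26 to 0.11 without 1 replicate number, and in control plants HanXRQChr03g0093991 ran from -0.20 to 0.16, and was 0.22 without SF342 and its hybrids. In those stressed plants HanXRQChr14g0433221 passed with all libraries (edgeR adjusted p = 0.0437) and not in 8 other settings. The cause was not tested.

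With the replicate number as a block, 19, 17 and 17 genes were called for hybrids against lines in control plants, in stressed plants and in the response, the same counts as without it, and 20 for differences among control genotypes. In that fit 7574 of the 36989 genes tested were called higher in control hybrids and 21.2% lower in stressed hybrids. A response lower in hybrids was called for 17.2% and differences among control genotypes for 66.7%. Same-numbered stressed and control plants of a genotype deviated together with a median r of 0.15 (-0.217 to 0.463), above 0.1 in 42 of 69 pairs and so not in every pair, which the criterion for pairing asked. 45 of 69 stressed plants correlated best with their own number, a hint from the data, not the design, that same-numbered plants may share something. Depth limits the stress values: 1 count was worth 0.0726 to 0.358 CPM.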

Other observations

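HanXRQChr05g0134131 had 31.2, 27.5 and 12.4 CPM in the 3 control plants of SF193_SF326, although its labelled parents SF193 and SF326 had no count of it in their control plants. This hybrid matched its labelled parents at 97.0% of 1813 genes that are on or off by genotype.

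HanXRQChr02g0035401, named after its values were seen, was below 1 CPM in the control plants of 5 lines. Of the 6 hybrids whose labelled parents were both among them, 5 had 1 CPM or more, up to 10.2 CPM in SF109_SF279, and SF193_SF342 had no count. The rule favoured genes that are on in control hybrids, as given in the Results.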
